A study of Bos taurus with 4 samples.

Results

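The genes described here encode the nuclear subunits and assembly factors of the mitochondrial respiratory chain and of ATP synthase, and the measurement is the accessibility of their promoters. A gene was taken where its name in the deposited table started with NDUF, UQCR or ATP5, was SDHA, SDHB, SDHC, SDHD or CYC1, or was COX followed by a digit, and where the summit of a listed interval lay within 1000 bp of its annotated start. This gave 93 genes of the 24886 names in the table, of which 14804 had a summit that near. They comprised 37 subunits of complex I, 7 assembly factors of complex I, 4 subunits of complex II, 9 of complex III, 10 of complex IV, 8 assembly factors of complex IV, 15 ATP synthase genes and 3 genes whose names match but which are known for other roles.

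The respiratory chain passes electrons from NADH (complex I) and succinate (complex II) through ubiquinone, complex III and cytochrome c to complex IV, which reduces oxygen. Complexes I, III and IV pump protons across the inner mitochondrial membrane, and ATP synthase uses the gradient to make ATP. A few core subunits are encoded by mitochondrial DNA, while the genes described here are nuclear and most are transcribed in nearly all cells. In rumen epithelium, butyrate made by microbes is both a fuel that is oxidized in mitochondria and an inhibitor of histone deacetylases.

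DNA accessibility was profiled by ATAC-seq, in which a transposase cuts and tags open chromatin, in rumen epithelial primary cells (REPC) from 1 Holstein calf aged 2 weeks. The series compared cells with and without butyrate treatment (5 mM, 24 h), with 2 libraries per group. The labels disagree on the treated pair, since the library names call the first pair Control and the second BT, whereas the titles and treatment field give butyrate for the first pair. Here the groups are called Control-named and BT-named after the library names, and the conflict leaves the pairs as they are but makes the sign of every difference uncertain. The study's supplement calls the libraries of a group biological replicates but does not say if these were separate cultures of the calf's cells, so p-values measure the spread between these libraries only.

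Each library was deposited as a list of intervals with a peak value (the signal at the summit) and an average value (the mean signal over the interval). The lists held 94941 and 98962 intervals in the Control-named and 83391 and 84808 in the BT-named libraries. Overlapping intervals were merged into regions, and for each gene the promoter region with the highest mean average value was used. Across all 65892 regions listed in every library, the libraries correlated at 0.967 to 0.969 within a group and at 0.815 to 0.836 between groups. Of 10 epithelial marker genes, 6 had a promoter region in all 4 libraries (EPCAM, ESRP1, KRT5, KRT8, KRT14 and KRT18), and no promoter region was listed for CDH1, TP63, KRT17 or GRHL2. The summed average value of those 6 was 453 and 599 in the Control-named against 664 and 684 in the BT-named libraries. By the rule given below, the keratin genes KRT14 (mean average values of 38.1 and 104) and KRT18 (124 and 225) were higher in the BT-named libraries, while KRT5 (log2 fold change -0.63) and EPCAM (-0.48) passed as lower as deposited only. Of 7 mesenchymal markers, 4 had a promoter region in all 4 libraries and the other 3 in some of them, and the summed average value of those 4 was 570 and 580.2 in the Control-named against 404 and 472 in the BT-named libraries. VIM, which encodes the filament protein vimentin, was the member of that list called by that rule (lower, with mean average values of 320.0 and 201), and did not pass by peak value or without BT-named 1. Of those 4, VIM differed most, while COL1A2 (log2 fold change -0.15), ACTA2 (-0.18) and THY1 (0.22) were not called and THY1 had the opposite sign. The part of cell composition in the results below was not tested.

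All 93 genes had a promoter region in all 4 libraries, and no 2 of them shared a region. The average value of a member ranged from 31.3 to 540.4 over the 4 libraries, and its peak value from 38 to 848. The median average value of the members was 167 and 174 in the Control-named and 173 and 172 in the BT-named libraries, while that of all 12161 promoter regions was 132, 146, 122 and 126 in the same order. Members, each taken at its region with the most signal, thus had a higher median than all promoter regions in every library. In mean average value 64 of 93 (68.8%) were above the median promoter region. The shared promoter regions also include further, weaker regions of a gene, so this base is unlike wherever members are set against it. The part of that choice in the differences was not tested. The promoter of ATP5G1, which encodes the c subunit of the ATP synthase rotor, held the highest mean average value (499) and that of NDUFS3, a core subunit of complex I, the lowest (43.4).

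A CpG island was annotated in the region of 84 of the 93 members (90.3%), against 79.3% of all promoter regions. Within the limit of 1000 bp that the choice of genes set, the summit nearest to the start was at a median of 69 bp, against 92 bp over all genes with a shared promoter region, and 81 members (87.1%) had it within 200 bp, against 71.1% of those genes. For 63 members it lay upstream of the start and for 30 inside the gene. The region of 37 members (39.8%) also held the start of another gene, against 27.7% of genes. Such neighbours included GABPA beside ATP5J, MRPL47 beside NDUFB5, RPS28 beside NDUFA7, EMC8 beside COX4I1, IK beside NDUFA2, TIMM8B beside SDHD and ERCC8 beside NDUFAF2, and in each of these cases the signal could not be assigned to either gene.

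**Figure D1:**
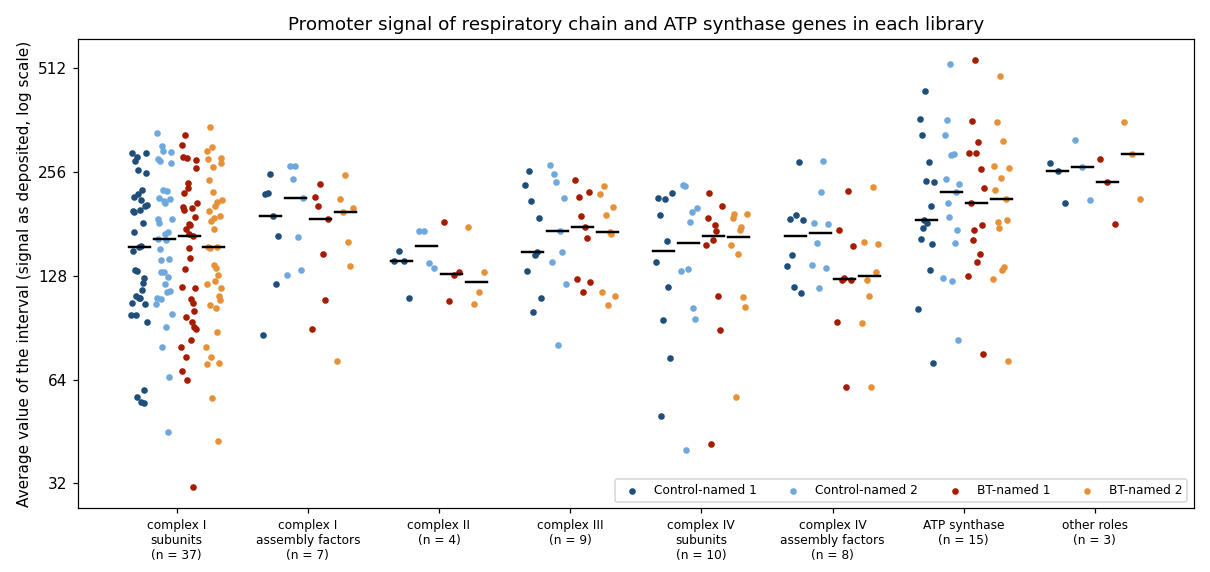
Average value of the promoter region of each of the 93 genes in each library (log scale, signal as deposited), by complex; each point is a gene and each black bar the median of a library. The ranges of the 4 libraries overlap in every complex, and the medians of the complex IV assembly factors are 167 and 170.2 in the Control-named and 125 and 128 in the BT-named libraries.

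Between the groups, 3 members were higher and 1 was lower in BT-named than in Control-named libraries, while 89 passed in neither direction. A promoter was called where limma, fitted over all 65892 shared regions with Benjamini-Hochberg adjustment, gave an adjusted p below 0.05 in the same direction as deposited, after centring each library on its median and after quantile normalization. Centring and quantile normalization raised the median log2 fold change of promoter regions by 0.36 and 0.30, so the rule was no further check on higher calls. As deposited and under all 3 scalings, 525 promoter regions were higher, whereas lower ones fell from 2706 to 674. The higher members were COX6B2, NDUFA6 and NDUFAB1 (3.23%, against 4.32% of all promoter regions) and the lower member was COX17 (1.08%, against 5.54%). In either direction the call was made for 4.30% of members and 9.86% of promoter regions. The counts of members called higher rested on few libraries, with 9 without Control-named 2, 2 without Control-named 1, 1 without BT-named 2 and 0 without BT-named 1, whereas COX17 was lower in each of these fits. At an unadjusted p below 0.05 under all 3 scalings, limma gave 5 higher and 1 lower members. The complex I assembly factors, complexes II and III and ATP synthase gave 0 in either direction by that count too. The share of all promoter regions was not computed for unadjusted counts or for fits with 1 library left out, here and below.

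The scaling moved most other calls. As deposited, 3 members passed as higher and 8 as lower, against 4.32% and 22.3% of promoter regions. Median centring added 0.36 to the median log2 fold change of all promoter regions, and 50 members then passed as higher and 1 as lower, against 40.5% and 5.71%. After quantile normalization the counts were 43 and 1, against 30.1% and 6.64%. Among those 43 were ATP5A1, ATP5G1, ATP5S, COX4I1, NDUFB9, NDUFS4, NDUFV1, SDHA, SDHD, UQCRC1 and UQCRFS1. These also passed as higher after median centring but not as deposited. An adjusted p given below without a scaling is that of the values as deposited. Which scaling is right cannot be told from the table, since the sources used here do not say how the libraries were normalized. Without BT-named 1, 5 members passed as lower as deposited.

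The median log2 fold change of the members, BT-named over Control-named on the log2(average value + 1) scale, was -0.05, compared with -0.13 for all promoter regions. The difference of 0.08 is the same after median centring by construction, and it was 0.09 after quantile normalization and 0.030 by peak value. By complex, the median minus that of all promoter regions as deposited was 0.17 for ATP synthase, 0.14 for complex III, 0.11 for complex IV subunits, 0.07 for complex II, 0.05 for complex I subunits, -0.05 for complex I assembly factors and -0.11 for complex IV assembly factors. By peak value these differences were, in the same order, 0.14, 0.056, 0.088, -0.014, 0.016, -0.0035 and -0.075, so that the sign for complex II turned. After quantile normalization complex II stood at 0.15. The SD of the fold change over members was 0.28, and 0.22 without COX17, against 0.34 over all promoter regions. The average values of the groups did not overlap for 15 members that were higher (16.1%, against 12.8% of promoter regions) and 33 that were lower (35.5%, against 44.6%). By peak value these counts were 5 and 47 of 93, and the share of promoter regions by peak value was not computed.

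**Figure D2:**
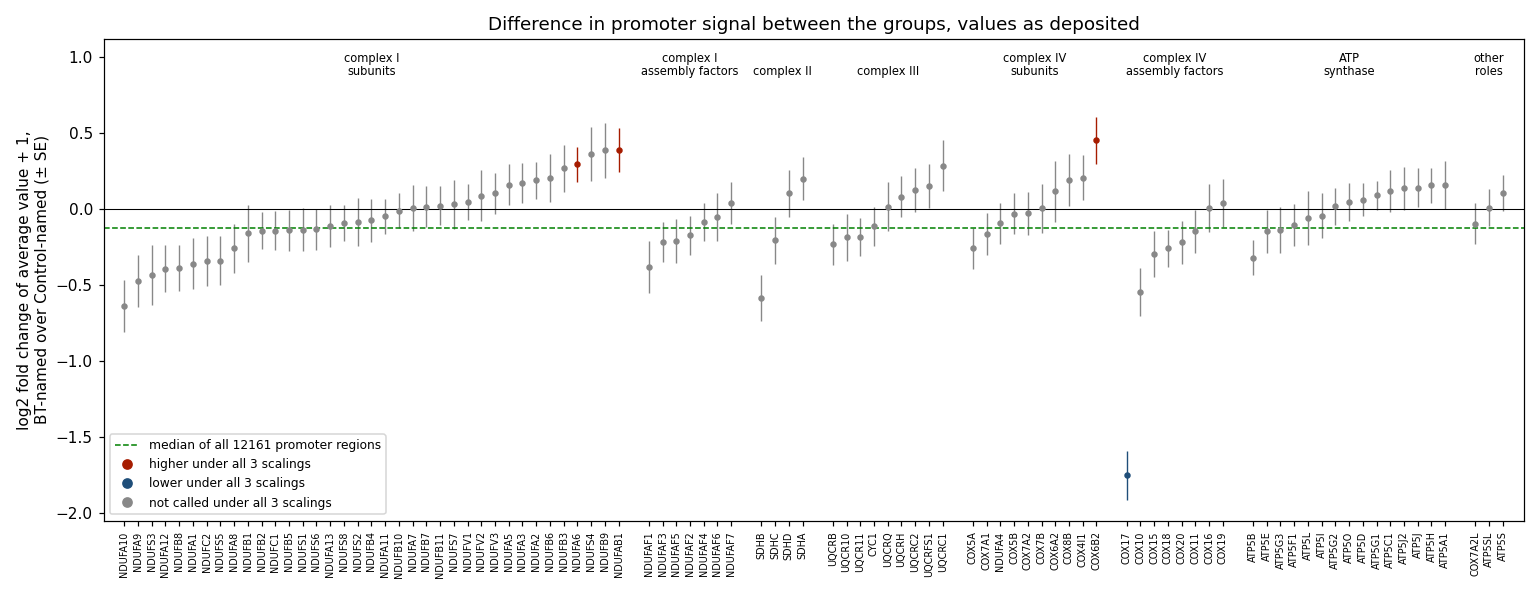
Log2 fold change of average value + 1 for each gene, BT-named over Control-named, as deposited, with the SE of the limma fit; genes are ordered by fold change within each complex and the dashed line is the median of all promoter regions (-0.13). COX17 at -1.75 stands apart from the other 92 genes, which lie between -0.64 and 0.45.

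COX17 encodes the copper chaperone of the intermembrane space that hands copper to the factors metallating cytochrome c oxidase. Its promoter region (UMD3.1, chromosome 1, 65031500 to 65032199) held a CpG island, and the summit lay at the same base in all 4 libraries, 198 bp inside the gene. The average value was 192 and 224 in the Control-named and 60.8 and 60.9 in the BT-named libraries. The peak value was 312 and 382 against 87 and 95. Both measures were thus lower in both BT-named libraries with no overlap, by 3.42 times for the average (208 ± 22.7 against 60.8 ± 0.066, SD, n = 2) and 3.81 times for the peak value. The log2 fold change was -1.75 ± 0.16 (SE; limma adjusted p = 2.2e-19), -1.39 after median centring and -1.42 after quantile normalization. By fold change it was number 12 from the lowest of all 12161 promoter regions. The intervals were of like length (639 and 648 bp against 613 and 561 bp), and COX17 passed in all 12 settings tried.

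The regions around it that were listed in all 4 libraries did not show a difference of that size. The promoter region of MAATS1, 17753 bp away, had average values of 239 and 289 against 217 and 236 (log2 fold change -0.22, limma adjusted p = 0.156). On the side away from MAATS1, another region inside COX17 had average values of 49.5 and 42.6 against 28.9 and 33.7 (-0.55). It lay 7350 bp from the gene start and at -6631 bp from the promoter region. That region passed as deposited and not under all 3 scalings, as did a pair of regions on the same side, at -29364 and -38742 bp, near PLA1A and POPDC2 (-0.51 and -0.79). Farther out, regions at -40589 bp (31.3 and 45.6) and -47741 bp (29.3 and 38.7) were listed by the Control-named pair alone. A region 12976 bp from COX17 on the MAATS1 side had a log2 fold change of 0.16, and another at 11371 bp was listed in Control-named 2 and BT-named 2 alone. COX17 was the only region called under all 3 scalings among the shared regions within 50 kb.

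**Figure D3:**
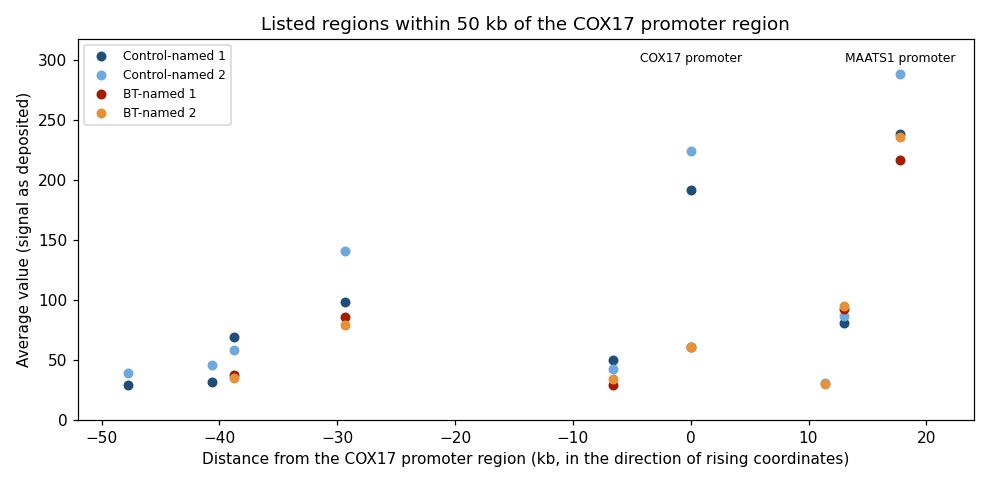
Average value in each library of every region listed within 50 kb of the COX17 promoter region, against the distance from it in kb. At COX17 the Control-named libraries are at 192 and 224 and the BT-named libraries at 60.8 and 60.9. At the MAATS1 promoter the Control-named libraries are at 239 and 289 and the BT-named libraries at 217 and 236, also without overlap.

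Of the other 7 complex IV assembly factors none was called under all 3 scalings. COX10, which farnesylates heme b on the way to the heme a of the enzyme, had average values of 137 and 138 in the Control-named and 94.3 and 93.2 in the BT-named libraries. Its groups did not overlap, and its log2 fold change of -0.54 passed as deposited (limma adjusted p = 0.00263) but not after median centring (adjusted p = 0.271). COX15, the enzyme of the next step of heme a synthesis, had 147 and 159 against 124 and 124 (-0.30, adjusted p = 0.0987 by limma). COX11 and COX19, which act in copper delivery beside COX17, had log2 fold changes of -0.15 and 0.04. SCO1 and SCO2, the copper receivers that the naming rule does not reach, were at 0.22 and -0.01. COX18, needed to insert the mitochondrially encoded subunit II into the membrane, had the highest signal of the group with 273 and 275 against 226 and 232.

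Among the 10 complex IV subunits, COX6B2 was higher and 9 were not called. COX6B2 is the testis isoform of subunit VIb in mammals. Its region (chromosome 18, 62573612 to 62574633) had its summits 768 to 832 bp inside the gene, so it is near the limit of the rule. The average value was 95.4 and 134 in the Control-named and 162 and 148 in the BT-named libraries, and the peak value 163 and 227 against 283 and 254. The groups did not overlap, although the Control-named libraries differed from each other by more than the gap to the nearest BT-named value. The log2 fold change was 0.45 ± 0.16 (SE; limma adjusted p = 0.0109). As deposited it was 0.21 without Control-named 1 and 0.39 without BT-named 1, and the call held in neither fit. After median centring these fold changes were 0.62 and 0.74.

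The subunits used in most tissues differed less. COX4I1, whose region EMC8 shares, had average values of 140.4 and 132 in the Control-named and 158 and 157 in the BT-named libraries (log2 fold change 0.21, limma adjusted p = 0.259). COX5A had 216 and 235 against 188 and 188, and for both genes the groups did not overlap (-0.26, adjusted p = 0.102, limma). COX5B had 193 and 234 against 223 and 193, with overlapping groups (-0.03 as deposited, 0.33 after median centring, where it passed). The muscle isoforms COX6A2, COX7A1 and COX8B gave log2 fold changes of 0.12, -0.16 and 0.19. COX6A2 had the lowest signal of the complex, with 50.3 and 39.9 against 41.6 and 56.9.

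Of the 37 complex I subunits, NDUFA6 and NDUFAB1 were higher and 35 were not called. NDUFAB1 is the mitochondrial acyl carrier protein, and NDUFA6 is an accessory subunit through which it is bound to the complex. The NDUFAB1 region (chromosome 25, 21508612 to 21509419) had average values of 132 and 142 in the Control-named and 175 and 185 in the BT-named libraries. Its log2 fold change was 0.39 ± 0.15 (SE; limma adjusted p = 0.0202). The NDUFA6 region (chromosome 5, 113585608 to 113586677), which also holds the start of LOC785804, had average values of 275 and 275 against 329 and 346. Its log2 fold change was 0.29 ± 0.12 (SE; limma adjusted p = 0.0281). Neither group overlapped the other for these genes, and the difference exceeded the spread within a group (137 ± 7.01 against 180 ± 7.07 for NDUFAB1, and 275 ± 0.37 against 337 ± 12.1 for NDUFA6, SD, n = 2).

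As deposited, the peak values of both genes gave no such difference. For NDUFAB1 they were 278 and 336 in the Control-named and 307 and 329 in the BT-named libraries (log2 fold change 0.06). For NDUFA6 they were 666 and 656 against 599 and 662 (-0.07). After median centring the fold changes by peak value were 0.47 for NDUFAB1 and 0.34 for NDUFA6, and both passed. After quantile normalization that of NDUFAB1 was 0.43 and passed, while that of NDUFA6 was 0.14 and did not. The intervals over which the average was taken were shorter in the BT-named libraries, at 488 and 463 bp against 647 and 803 bp for NDUFAB1 and at 717 and 713 bp against 1042 and 1070.0 bp for NDUFA6. As deposited, the log2 fold change of NDUFA6 was 0.33 without BT-named 1 and 0.26 without BT-named 2. That of NDUFAB1 was 0.43 and 0.35 without the same libraries and 0.34 without Control-named 1. The calls did not hold as deposited in any of these fits. After median centring the fold changes were, in the same order, 0.68 and 0.63 for NDUFA6 and 0.78, 0.72 and 0.75 for NDUFAB1.

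NDUFB9, another accessory subunit that binds the acyl carrier protein, had average values of 55.1 and 91.1 in the Control-named and 83.4 and 104 in the BT-named libraries, with overlapping groups (0.39, limma adjusted p = 0.0661). NDUFS4, an accessory subunit next to the NADH-oxidizing module, had 59.6 and 65.3 against 90.8 and 71.3, with no overlap (0.36, limma adjusted p = 0.0904). At the other end, NDUFA10 had 107 and 110.4 against 67.8 and 70.9 (-0.64) and NDUFA9 had 98.6 and 109 against 74.3 and 74.6 (-0.48). With NDUFA12 (-0.39) and NDUFB8 (-0.38), these passed as deposited (limma adjusted p from 0.000899 to 0.0282) and after neither other scaling.

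The core subunits shown next were not called. NDUFV1, which binds NADH and flavin, had average values of 255 and 272 in the Control-named and 264 and 281 in the BT-named libraries (log2 fold change 0.05). NDUFS1, the largest iron-sulphur subunit, had 182 and 172 against 167 and 155 (-0.14, limma adjusted p = 0.458). NDUFS3, a core subunit without a redox group, had the lowest signal of all members, with 54.6 and 45.1 against 31.3 and 42.5 (-0.43, limma adjusted p = 0.0616). Thus 1 of these genes overlapped between the groups, NDUFV1, and the others did not. Farther inside NDUFS3, 7197 bp from the annotated start, a region had 240 and 281 against 229 and 244 (-0.13). Whether that region serves as a promoter was not tested.

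None of the 7 complex I assembly factors was called, and their log2 fold changes ran from -0.38 to 0.04. NDUFAF4, an early assembly factor with the highest signal of the group, had average values of 252 and 266 in the Control-named and 237 and 252 in the BT-named libraries (-0.09 as deposited, 0.28 after median centring, where it passed). NDUFAF1, which acts on the membrane arm, had 86.0 and 129 against 89.8 and 72.4, with overlapping groups (-0.38, limma adjusted p = 0.0576).

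The 4 subunits of complex II differed in sign. SDHA, the flavoprotein that oxidizes succinate, had average values of 142 and 173 in the Control-named and 183 and 177 in the BT-named libraries (0.20, limma adjusted p = 0.257). SDHB, the iron-sulphur subunit, had 151 and 173 against 109 and 106, so the groups did not overlap for either gene, and the signs were opposite. The log2 fold change of SDHB was -0.59 ± 0.15 (SE), which passed as deposited (limma adjusted p = 0.00073) but not after median centring (adjusted p = 0.152). By peak value it was -0.19. SDHC and SDHD, the membrane anchors, were at -0.21 and 0.10.

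None of the 9 genes of complex III was called, and their log2 fold changes lay between -0.23 (UQCRB) and 0.29 (UQCRC1). UQCRC1, a core protein of the complex and the member of it with the least signal, had average values of 101 and 80.8 in the Control-named and 115 and 106 in the BT-named libraries (limma adjusted p = 0.152), and its groups did not overlap. CYC1, cytochrome c1, had 235 and 268 against 243 and 222 (-0.11 as deposited, 0.25 after median centring, where it passed). UQCRFS1, the Rieske iron-sulphur protein, had 150.0 and 150.3 against 165 and 170 without overlap (0.15, limma adjusted p = 0.404). UQCRC1 and UQCRFS1 passed as higher after median centring and after quantile normalization.

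None of the 15 ATP synthase genes was called under all 3 scalings, while 10 passed as higher after median centring, a scaling under which 40.5% of all promoter regions did. All 15 had a CpG island in the region, and the SD of their log2 fold changes was 0.14. The c subunit of the rotor ring is encoded by ATP5G1, ATP5G2 and ATP5G3. ATP5G1 had average values of 441 and 527 in the Control-named and 540.4 and 487 in the BT-named libraries (0.09, limma adjusted p = 0.480). Log2 fold changes of ATP5G2 and ATP5G3 were 0.02 and -0.14. ATP5B, the catalytic beta subunit, had 366 and 329 against 290 and 266 without overlap. Its log2 fold change of -0.32 passed as deposited (limma adjusted p = 0.0153) and was 0.04 after median centring. ATP5A1, the alpha subunit, had 102 and 126 against 128 and 126 (0.16, limma adjusted p = 0.439). ATP5L, a membrane-sector subunit, had the lowest signal with 71.7 and 83.6 against 76.0 and 72.4.

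ATP5J shared its region with GABPA, which encodes a subunit of a nuclear regulator of respiratory genes, so the average values of 205 and 224 in the Control-named and 261 and 215 in the BT-named libraries belong to both (log2 fold change 0.14, limma adjusted p = 0.389). Of the genes whose names match but whose roles are others, ATP5S had 273 and 317 against 280.1 and 358 (0.11), and COX7A2L, a factor of supercomplex assembly, had 208 and 213 against 180.5 and 214 (-0.10). The groups overlapped for both genes.

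The median peak value of the members was 309 and 346 in the Control-named and 299 in each BT-named library. By peak value, COX6B2 was the member called higher and COX17 the member called lower, against 3.68% and 6.2% of promoter regions. The log2 fold change of the average value was above that of the peak value for 65 members (69.9%, against 61.2% of promoter regions). For 70 members (75.3%) both BT-named intervals were shorter than both Control-named intervals, and for 0 they were longer, against 52.1% and 11.1% of promoter regions. Median interval lengths of the members were 772 and 763 bp in the Control-named and 613 and 608 bp in the BT-named libraries. Interval length therefore moved with the group, and its part in the average values was not tested.

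**Figure D4:**
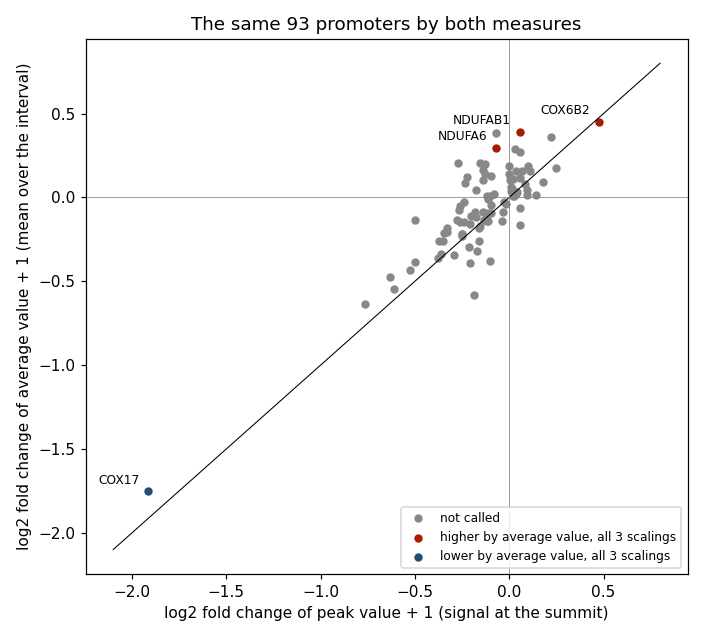
Log2 fold change of average value + 1 against that of peak value + 1 for the 93 promoter regions, as deposited; the diagonal marks equal change. COX17 (-1.91 and -1.75 for peak and average value) and COX6B2 (0.48 and 0.45) lie near the diagonal, while NDUFA6 (-0.07 and 0.29) and NDUFAB1 (0.06 and 0.39) lie above it.

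For 11 members another promoter region was listed within 1 kb of the start. Those of ATP5D, COX7A1 and UQCR11 occurred in all 4 libraries, and none was called. Those of COX19, NDUFB1, NDUFS7 and UQCRH were listed by the Control-named pair alone, and 0 by the BT-named pair alone. Over all promoter regions of the members, these were 4 and 0 of 104. Of all promoter regions listed in any library, 6.4% and 1.99% fell in these classes. The NDUFS7 region lay nearest to its start, with its summit 54 bp upstream and average values of 102 and 107 in the Control-named libraries. Regions of ATP5I, NDUFAF2 and NDUFAF7 were listed in Control-named 2 alone and a region of SDHB in BT-named 2 alone. A list holds only called intervals, so a region absent from it may still have signal.

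Away from promoters, 168 regions with no gene start within 1 kb were annotated to 75 members, and some also to other genes. Of these, 98 were listed in all 4 libraries, 22 (13.1%, against 14.1% of all such regions) were particular to the Control-named pair and 9 (5.36%, against 4.91%) to the BT-named pair. Of the 98, 5 were higher (5.10%, against 7.47%) and 14 lower (14.3%, against 23.3%) under all 3 scalings. The higher regions lay upstream of COX7A2 at -5593 bp (25.7 and 33.0 in the Control-named against 58.9 and 64.2 in the BT-named libraries), downstream of ATP5G2, ATP5B and NDUFA2, and upstream of NDUFC1. Among the lower regions were those 24740 bp inside NDUFA12 (81.7 and 70.9 against 26.8 and 30.0), upstream of NDUFB2 at -9380 bp (80.9 and 86.9 against 31.7 and 35.8), 20022 bp inside NDUFAF6 (159 and 204 against 91.9 and 76.2) and 21224 bp inside SDHB (179 and 176 against 107 and 89.4). In each of these examples the groups did not overlap.

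In 3 lists of genes of neighbouring functions that the naming rule does not reach, no promoter was called under all 3 scalings, against 9.86% of all promoter regions, and the shares that passed as lower as deposited stand against 22.3%. Of 44 further assembly factors and electron carriers, 35 had a promoter region in all 4 libraries, with 0 higher and 0 lower under all 3 scalings by limma, also at an unadjusted p below 0.05. The counts as deposited by limma were 0 higher and 3 lower (NUBPL, SDHAF4 and CMC1, at log2 fold changes of -0.54, -0.43 and -0.49). CYCS, which encodes cytochrome c, had 400 and 494 in the Control-named and 394 and 386 in the BT-named libraries (-0.19, limma adjusted p = 0.131). Of 15 nuclear regulators of respiratory genes, 12 had a shared promoter region and 0 were called (limma, and 0 unadjusted), TFAM being at 0.12 and NRF1 at 0.01. All 21 genes of the citric acid cycle and pyruvate entry had one, with 0 called under all 3 scalings (1 higher and 0 lower by unadjusted p in limma) and 2, IDH3B (-0.37) and MPC2 (-0.38), lower as deposited. The medians of these lists differed from that of all promoter regions by 0.02, 0.15 and 0.02. In the list of nuclear regulators, the region of GABPA is also that of the member ATP5J and so is counted in both.

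The limit of 1 kb left out 7 names that match otherwise. The members nearest to the limit were COX4I1 (921 bp), COX8B (784 bp), COX6A2 (-771 bp, where minus is upstream) and COX6B2 (768 bp). Just outside it were COX8A (-1866 bp), COX14 (1878 bp), NDUFA4L2 (2019 bp), COX6A1 (2249 bp) and COX4I2 (-2611 bp). COX14, an assembly factor of complex IV, had average values of 448 and 473 in the Control-named and 412 and 430.4 in the BT-named libraries at its nearest region. The nearest region of COX8A had 119 and 137 against 135 and 149. COX6B1, the other isoform of subunit VIb, had its nearest region at -6319 bp, with 248 and 261 against 244 and 249. For COX7B2 a region 66076 bp from the start was listed in BT-named 1 alone.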

How the data were processed

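Per the labels, the study's methods and the submitters' processing notes, the authors sequenced paired reads of 42 nt, mapped these to cattle assembly UMD3.1 with BWA and called peaks with MACS2. The notes also name Trim Galore 0.4.1. The deposited peak and average values are signal values of the authors, and how they were normalized between libraries was not stated in the sources used here. The study's mapping summary lists read totals of the 4 libraries, which were not used here because the table holds no counts. No sequences or genome were used.

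Intervals (362102) sharing at least 1 bp were merged into 115970 regions, of which 65892 were listed in all 4 libraries. These were fitted with limma 3.58.1 in R 4.3.3 (trended, robust variance, two-sided) on log2(average value + 1), as deposited, after median centring and after quantile normalization, with Benjamini-Hochberg adjustment over all of them. The fit was tested on simulated data. Coordinates count from 1.

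The named genes were 31: those called, the 5 largest and 5 smallest fold changes, the highest and lowest signal of each complex and 10 subunits picked by role. These 10 were SDHA, SDHB, CYC1, UQCRFS1, COX4I1, COX5A, NDUFS1, NDUFV1, ATP5A1 and ATP5B. Other genes were named from their place among the 31, as neighbours or by role, after their values were seen. The members and lists were chosen with earlier results of these data known. All 93 names matched the RefSeq gene table, 17 of them under another symbol.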

Additional observations from a re-analysis of the deposited data

How the results depend on the processing

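With 2 libraries per group from 1 calf and the normalization not stated, small differences could not be resolved. The count of members called higher under all 3 scalings was 3, and 1 by peak value and with a plain (untrended) variance. Leaving out 1 library at a time gave 0 (without BT-named 1) to 9 (without Control-named 2). The count of members lower under all 3 scalings was 1 in each setting run. As deposited, the 3 higher became 50 after median centring, 43 after quantile normalization, 1 by peak value, 1 with a plain variance and 0 to 9 with 1 library left out, and the 8 lower became 1, 1 and, with 1 library left out, 5 to 12. Median centring turned the sign of ATP5B (0.041), COX5B (0.33), CYC1 (0.25) and NDUFAF4 (0.28), and peak value that of NDUFA6 (-0.070); changes of sign where neither value passed were not counted as turned. The causes were not tested, except that centring adds 0.36 to every promoter's fold change by construction. The median of the members minus that of all promoter regions was 0.030 by peak value, 0.043 with a promoter distance of 500 bp, and 0.06 to 0.10 with 1 library left out. Of 430 values of the named genes over all settings, 333 kept their direction and side of the threshold, 28 changed sign on the same side of it, 36 newly passed, 28 no longer passed and 5 turned. With peak values of 50 or more, 92 members kept a shared promoter region, and 87 with a promoter distance of 500 bp.

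The replicate numbers share only a number: deviations of same-numbered libraries correlated at 0.03. With the number as a replicate block, 3 members were higher and 1 was lower under all 3 scalings, and 10 were lower as deposited. The median difference from all promoter regions was then 0.08. No share of all promoter regions was computed for the replicate block, the plain variance or peak value as deposited.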
